A study of Saccharomyces cerevisiae with 16 samples.

Results

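The genes described here encode the enzymes and permeases through which budding yeast (Saccharomyces cerevisiae) takes up ammonium and builds it into amino acids: GDH1, GDH2, GDH3, GLN1, GLT1, MEP1 and MEP3. They were chosen by name, as the probe sets annotated with a single gene that is one of these 7, out of 5656 genes that had such a probe set. Each of the 7 had exactly 1 probe set, and all 7 were among the 5410 genes that passed the filter on dim signals.

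The cells were of strain CEN PK 113-7D, grown with air in a chemostat, in which fresh medium steadily replaces culture and the limiting nutrient, here carbon, holds growth at a fixed pace. The culture then received a sudden dose of glucose, after which about 1 g/l of it (5.56 mM) was present in the broth, and RNA was measured on Affymetrix yeast arrays. All samples shared the strain, a mineral medium with 27.1 g/l glucose and 1.42 g/l ethanol, a temperature of 30 degrees C, a pH of 5 and a dilution rate set at 0.05 per hour. Each time point was set against the cultures sampled before their pulse; unpulsed cultures over the same seconds were not analysed here. There were 3 samples from each of 120 s and 300 s after the pulse, 2 from each of 30 s, 60 s and 330 s, a single one from 210 s, and 3 from steady state before the pulse. The labels give each time, other than 210 s, as coming from at least 2 independent cultures, and number the pulses 1 to 3. The single 210 s sample entered no test.

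Ammonium enters yeast through permeases of the Mep family. Inside the cell it is joined to 2-oxoglutarate by glutamate dehydrogenase, giving glutamate, and to glutamate by glutamine synthetase, giving glutamine. Glutamate synthase returns the nitrogen of glutamine to 2-oxoglutarate, and a separate, NAD-dependent glutamate dehydrogenase runs the other way and releases ammonium from glutamate.

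Signals are linear intensities rescaled so that the trimmed mean of each array is 150, with values under 12 raised to 12. A level can be compared between samples for one gene, but not between genes, because each probe set has its own brightness. Changes are given as log2 differences between group means with the standard error (SE) of limma's fit over 15 arrays, and a gene is called changed where the p-value adjusted by Benjamini-Hochberg over all 5410 genes is under 0.05. The deposited trimmed means ran from 82.75 to 325.9 before rescaling, and between 1.65% and 4.86% of genes lay at the floor on any array. Replicate arrays of one time correlated at 0.967 to 0.989 across genes, with the lowest value between 2 steady-state arrays. Of the mating type a genes fixed as a check on this haploid strain, 6 of 6 lay above the floor on all 16 arrays, while of the 4 alpha-specific genes MF(ALPHA)2 lay at the floor on 14 arrays and the other 3 did not. The arrays were numbered in 4 series, and both 330 s arrays were alone on one array day, in a number series shared only with steady state replicate 1. That day cannot be told apart from the 330 s time. A number series can span array days. Steady state and 300 s shared a day in pulse 3 but not in pulse 2, and steady state replicate 1 was on another day than the 330 s arrays.

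No gene of the 7 was called up to 120 s after the pulse. The count was 0 of 7 at 30 s, where 0.0% of all genes were called, 0 of 7 at 60 s, where 0.0% were called, and 0 of 7 at 120 s, where 0.0739% were called (0.0555% higher and 0.0185% lower). At an unadjusted p under 0.05 limma also gave 0 of 7 at each of these times, while 336 genes at 30 s, 343 at 60 s and 586 at 120 s passed that looser threshold.

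By 300 s the ammonium permeases MEP1 and MEP3 and the glutamine synthetase gene GLN1 had risen and the glutamate-degrading GDH2 had fallen, each against steady state. GDH1, GDH3 and the glutamate synthase gene GLT1 did not pass. This made 4 of 7 called, beside 30.5% of all genes, with 3 of 7 higher beside 12.1% and 1 of 7 lower beside 18.3%. The median change of the 7 was 0.30 on the log2 scale, against -0.12 for all genes. Among all genes, 656 were higher and 992 lower, or 39.8% higher. Centring each array on its median turned the split to 873 higher and 536 lower (62.0% higher), and quantile normalization gave 783 and 766 (50.5% higher).

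At 330 s the calls were GDH1, GLN1 and MEP3 higher and GDH2 lower, again 4 of 7, beside 37.6% of all genes. The 3 of 7 higher stand beside 13.3% and the 1 of 7 lower beside 24.3%, with a median change of 0.21 for the members and -0.19 for all genes. All-gene calls were 720 higher and 1314 lower at that time, or 35.4% higher, which became 51.8% with median centring and 43.2% with quantile normalization. In bulk RNA of this kind a change in the amount of one transcript per cell and a change in the share of cells that carry it cannot be told apart.

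**Figure D1:**
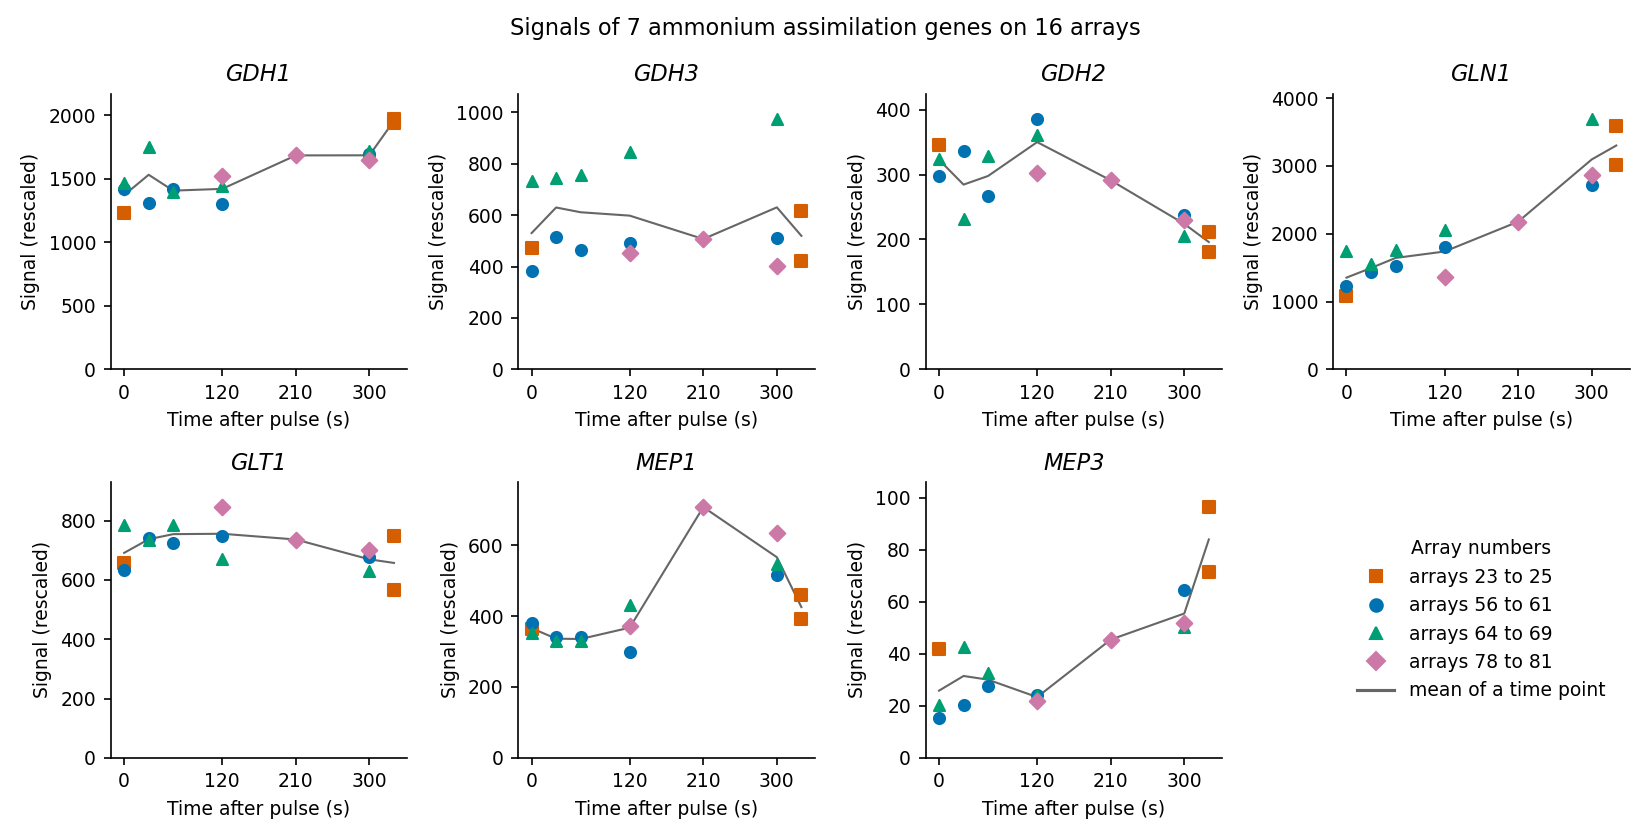
Rescaled signal (intensity, linear axis from 0) of each of the 7 genes on every array, against time after the glucose pulse in seconds, with steady state drawn at 0 s; each point is an array, its shape and colour give the array number series, and the line joins the means of the time points. GLN1 and MEP3 lie above all their steady-state arrays at 300 s and 330 s, GDH2 lies below them, and MEP1 is higher at 210 s and 300 s than at 330 s.

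MEP1 encodes one of the 3 ammonium permeases of this family in yeast. Its signal was 363.5, 381.9 and 352.2 at steady state, 341.5 and 331.1 at 30 s, 340.5 and 330.2 at 60 s, 371.5, 299.1 and 431.6 at 120 s, 707.7 at 210 s, 635.7, 515.9 and 547.0 at 300 s, and 391.6 and 459.2 at 330 s. The 3 values at 300 s all lay above the 3 at steady state, and the single array at 210 s was the highest of all 16. MEP1 averaged 566.2 ± 62.17 at 300 s and 365.9 ± 14.99 at steady state (SD, n = 3 each), a 1.54-fold rise (log2 0.63, SE 0.13, limma adjusted p = 0.00254). Within the array series that hold both times, the log2 difference was 0.43 in pulse 2 and 0.64 in pulse 3. Only in pulse 3 did the compared arrays also share an array day. At 330 s MEP1 averaged 425.4 ± 47.8 (n = 2), and its difference from steady state, 0.21 on the log2 scale with a 95% interval of -0.10 to 0.53, did not pass (limma adjusted p = 0.275). The difference between 330 s and 300 s, -0.41 with an SE of 0.15, did not pass over all genes either (limma adjusted p = 0.146), beside 2.18% of genes called in that comparison (0.647% higher and 1.53% lower). None of the 7 genes was called between 330 s and 300 s. At an unadjusted p under 0.05 limma gave 1 of 7, MEP1, beside 1064 of 5410 genes.

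MEP3 encodes the permease of low affinity and high capacity in this family. It had the dimmest probe set of the 7, with signals of 41.69, 15.33 and 20.51 at steady state, 20.28 and 42.7 at 30 s, 27.52 and 32.61 at 60 s, and 21.89, 24.02 and 24.19 at 120 s. It then read 45.48 at 210 s, 51.74, 64.62 and 50.21 at 300 s, and 96.46 and 71.56 at 330 s. The 300 s and 330 s values lay above all 3 steady-state values, of which steady state replicate 1 was the highest. MEP3 averaged 55.52 ± 7.915 at 300 s and 25.84 ± 13.97 at steady state (SD, n = 3 each), a 2.34-fold rise (log2 1.23, SE 0.32, limma adjusted p = 0.0088). It averaged 84.01 ± 17.61 at 330 s (n = 2), 3.52-fold above steady state (log2 1.82, SE 0.35, limma adjusted p = 0.00103). With the array number series as a block, the 330 s change was 0.99 (SE 0.35, limma adjusted p = 0.0459). The 330 s arrays stood 1.21 and 0.78 higher on the log2 scale than steady state replicate 1, the array they share a number series with. Within the other series MEP3 stood 2.08 (pulse 2) and 1.29 (pulse 3) higher at 300 s than at steady state on the log2 scale.

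MEP2, the third permease of the family and known in yeast also as a sensor of ammonium scarcity, is not one of the 7 but was measured on the same arrays. It averaged 640.4 ± 69.4 at 300 s and 403.0 ± 54.58 at steady state (SD, n = 3 each) and rose by 0.67 on the log2 scale (SE 0.12, limma adjusted p = 0.000771). Like MEP1, it was not called at 330 s (0.29, limma adjusted p = 0.104). The MEP genes resemble each other in sequence; signal shared between their probe sets was not tested.

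GDH1 encodes the main NADP-dependent glutamate dehydrogenase, which makes glutamate from ammonium and 2-oxoglutarate. Its signal was 1232, 1419 and 1465 at steady state, 1314 and 1751 at 30 s, 1419 and 1396 at 60 s, 1520, 1300 and 1444 at 120 s, 1685 at 210 s, 1646, 1694 and 1717 at 300 s, and 1975 and 1940 at 330 s. The 3 arrays at 300 s lay above the 3 at steady state, and both at 330 s lay above all other arrays. GDH1 averaged 1686 ± 36.23 at 300 s and 1372 ± 123.4 at steady state (SD, n = 3 each); the log2 difference of 0.30 (SE 0.12, 95% interval 0.04 to 0.56) did not pass (limma adjusted p = 0.0727). It was called with median centring (0.47, limma adjusted p = 0.047) and with day as a random block (0.30, limma adjusted p = 0.0401). It averaged 1958 ± 24.75 at 330 s (n = 2), a 1.43-fold rise over steady state (log2 0.52, SE 0.14, limma adjusted p = 0.00759). Both 330 s arrays exceeded the steady-state array of their own number series, by 0.68 and 0.66 on the log2 scale. Both differences use that single array, steady state replicate 1, which was the lowest of the 3 at steady state. The 330 s call was lost without 330 s replicate 1 (0.50, limma adjusted p = 0.0504).

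GDH3 encodes a second NADP-dependent isoenzyme, known in yeast for its use on non-fermentable carbon. Its signals were 472.7, 383.9 and 734.9 at steady state, 516.0 and 744.2 at 30 s, 465.1 and 758.0 at 60 s, 454.6, 493.4 and 847.2 at 120 s, 507.3 at 210 s, 403.3, 512.3 and 976.3 at 300 s, and 423.2 and 616.2 at 330 s. Arrays of pulse 3 were the highest at each time that pulse covered, and the time groups overlapped throughout. GDH3 averaged 630.6 ± 304.3 at 300 s and 530.5 ± 182.5 at steady state (SD, n = 3 each), and the log2 difference was 0.20 with a 95% interval of -0.51 to 0.90 (limma adjusted p = 0.688). Within the array series that hold both times, the 300 s difference was 0.42 in pulse 2 and 0.41 in pulse 3. The 330 s arrays differed from the steady-state array of their own number series by -0.16 and 0.38. At 330 s the interval around -0.00 was -0.79 to 0.79 (limma adjusted p = 1.0).

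GDH3 had the largest median difference between pulses of the 7 genes. At the 5 times that both pulses covered, GDH3 was higher in pulse 3 than in pulse 2 at 5 of 5, by 0.53 to 0.94 on the log2 scale, with a median of 0.78. Over all genes, 385 of 5410 (7.12%) were higher in pulse 3 at all 5 times, the median over genes was -0.04, and 17 genes (0.314%) had a median difference at least as large as that of GDH3. GLN1 was also higher in pulse 3 at 5 of 5 times, by 0.12 to 0.52, with a median of 0.22. The medians of the other 5 genes lay between -0.10 and 0.24, with single MEP3 differences from -0.36 to 1.07. The GDH3 pattern was singled out after the values were seen and carries no test, and pulse 3 arrays all share one array day and one number series. GDH1 and GDH3 are paralogs, and signal shared between their probe sets was not tested; GDH1 itself differed between the pulses by a median of 0.05.

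**Figure D2:**
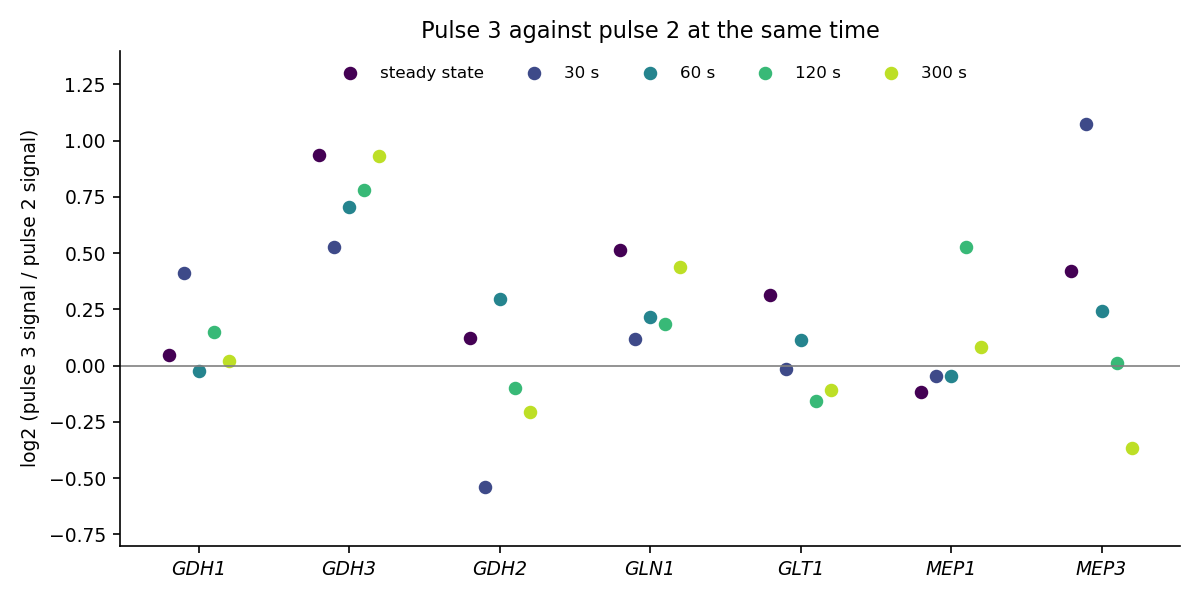
Log2 signal in pulse 3 minus log2 signal in pulse 2 for each of the 7 genes, with 1 point for each of the 5 times that both pulses covered. All 5 GDH3 points lie between 0.53 and 0.94, above the 5 GLN1 points at 0.12 to 0.52, while the medians of the other 5 genes lie between -0.10 and 0.24. Single points of those genes spread wider, and the MEP3 points run from -0.36 to 1.07, the highest in the figure.

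GLN1 encodes glutamine synthetase, which joins ammonium to glutamate. Its signal was 1085, 1224 and 1749 at steady state, 1434 and 1555 at 30 s, 1520 and 1766 at 60 s, 1361, 1802 and 2051 at 120 s, 2178 at 210 s, 2863, 2726 and 3699 at 300 s, and 3584 and 3019 at 330 s. Each of the 300 s and 330 s arrays lay above every array of the earlier times. At 120 s the mean was 1738 ± 349.4, with a log2 difference from steady state of 0.37 (95% interval -0.03 to 0.77) that did not pass (limma adjusted p = 0.508). At 300 s GLN1 averaged 3096 ± 526.7, against 1353 ± 350.2 at steady state (SD, n = 3 each), and the change was 1.21 on the log2 scale (SE 0.19, limma adjusted p = 0.000201). At 330 s it averaged 3302 ± 399.5 (n = 2), 2.48-fold above steady state (log2 1.31, SE 0.21, limma adjusted p = 0.000198). The within-series differences at 300 s were 1.16 (pulse 2) and 1.08 (pulse 3), and those of the 330 s arrays were 1.72 and 1.48. Both 330 s differences use steady state replicate 1, the lowest steady-state array for GLN1. Between 330 s and 300 s GLN1 differed by 0.10 on the log2 scale (limma adjusted p = 0.841).

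GLT1 encodes glutamate synthase, which with glutamine synthetase forms the second route from ammonium to glutamate. Over the 16 arrays it ran from 566.9 to 846.0, with a median of 729.1, and its ratio of highest to lowest signal, 1.49, was the smallest of the 7. The signals were 656.0, 632.2 and 786.3 at steady state, 741.5 and 733.4 at 30 s, 724.8 and 784.6 at 60 s, 846.0, 749.4 and 672.5 at 120 s, 736.6 at 210 s, 699.6, 678.7 and 630.6 at 300 s, and 748.2 and 566.9 at 330 s. Every later group of replicates overlapped with steady state. The log2 difference from steady state was -0.04 at 300 s, with a 95% interval of -0.32 to 0.23, and -0.08 at 330 s, with an interval of -0.39 to 0.23 (limma adjusted p = 0.842 and 0.688). The upper bounds lie below the changes fitted for GLN1 at the same times.

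GDH2 encodes the NAD-dependent glutamate dehydrogenase that breaks glutamate down to 2-oxoglutarate and ammonium. Its signal was 345.2, 298.3 and 324.7 at steady state, 336.9 and 232.1 at 30 s, 267.3 and 328.3 at 60 s, 302.7, 386.2 and 361.0 at 120 s, 291.1 at 210 s, 229.3, 237.2 and 205.5 at 300 s, and 211.8 and 180.3 at 330 s. The 300 s and 330 s values lay below all steady-state and all 120 s values. GDH2 averaged 224.0 ± 16.5 at 300 s and 322.7 ± 23.51 at steady state (SD, n = 3 each), a fall of 1.44-fold (log2 -0.53, SE 0.15, limma adjusted p = 0.0159). At 330 s it averaged 196.1 ± 22.27 (n = 2) and was 1.65-fold lower than at steady state (log2 -0.72, SE 0.17, limma adjusted p = 0.00374). The within-series log2 differences at 300 s were -0.33 (pulse 2) and -0.66 (pulse 3). The 300 s call was the least stable of those at this time, and was lost with median centring (-0.36, limma adjusted p = 0.11), with the array series as a block (-0.44, limma adjusted p = 0.0805), without steady state replicate 1 (-0.48, limma adjusted p = 0.0542) and without 300 s replicate 3 (-0.47, limma adjusted p = 0.0619). The 330 s call was lost without 330 s replicate 2 (-0.61, limma adjusted p = 0.0539).

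**Figure D3:**
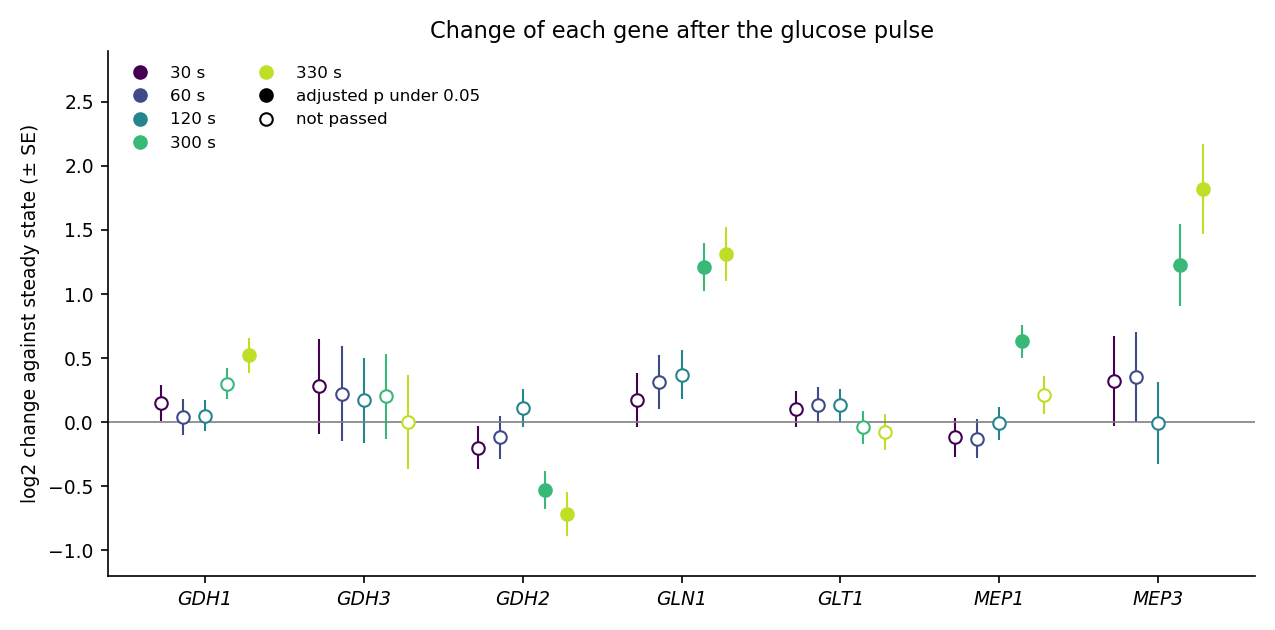
Log2 change of each of the 7 genes against steady state at 30, 60, 120, 300 and 330 s, from limma's fit; points are fitted differences, bars are ± 1 SE, and filled points passed the adjusted p threshold. No point passed before 300 s; GLN1 (1.21) and MEP3 (1.23) were the highest at 300 s, and GDH2 (-0.53) was the lowest.

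Set against 120 s rather than steady state, GLN1, MEP1 and MEP3 rose at 300 s and GDH2 fell, 4 of 7 beside 22.1% of all genes, with 11.3% higher and 10.8% lower. GLN1 stood at 3096 ± 526.7 at 300 s and 1738 ± 349.4 at 120 s, a 1.79-fold rise (log2 0.84, SE 0.19, limma adjusted p = 0.00429). MEP1 rose by 0.63 (SE 0.13, limma adjusted p = 0.00279) and MEP3 by 1.24 (SE 0.32, limma adjusted p = 0.00998) on that scale. GDH2 averaged 224.0 ± 16.5 at 300 s and 350.0 ± 42.83 at 120 s, and its log2 difference was -0.64 (SE 0.15, limma adjusted p = 0.00626). GDH1, at 0.25, did not pass (limma adjusted p = 0.16). The comparisons with 120 s and with steady state share the 300 s arrays. In the array series that holds pulse 1 samples at 120, 210 and 300 s, the log2 differences from 120 s at 210 s and 300 s were 0.68 and 1.07 for GLN1, 0.93 and 0.77 for MEP1, 1.05 and 1.24 for MEP3 and -0.06 and -0.40 for GDH2. The 300 s array of that series was on another array day than its 120 s and 210 s arrays.

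Across all replicated times together, limma's F test called 5 of 7 (GDH1, GDH2, GLN1, MEP1 and MEP3) beside 35.5% of all genes. GLN1 had an adjusted p of 0.000269, MEP3 0.00269, MEP1 0.00342, GDH2 0.00536 and GDH1 0.043. GLT1 and GDH3 did not pass, at 0.649 and 0.968. GDH1's call was lost with median centring (limma adjusted p = 0.0687), with quantile normalization (0.0509) and without the variance trend. It was also lost in 11 of 15 fits that left out 1 array each, while the other 4 calls held in all 15. Without the 3 arrays of the number series that holds the 330 s samples the F test called 3 of 7, beside 18.9% of all genes. Without the 330 s arrays alone it called 2 of 7, beside 19.8%.

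The genes whose log2 signal ran most like that of each called member over the 16 arrays were listed by Pearson's r, as a description in which all values share the arrays and their scaling. GLN1 ran most like LYS20 (0.955), an enzyme of lysine synthesis, GPP1 (0.955), a glycerol phosphatase, and MAE1 (0.947), the mitochondrial malic enzyme. MEP1 ran most like CIT2 (0.863), a citrate synthase, TMC1 (0.835) and PUN1 (0.829), and MEP3 like ISA1 (0.899), JJJ3 (0.896) and PCL1 (0.888), of which ISA1 acts in iron-sulfur cluster assembly and PCL1 is a cyclin. GDH1 ran most like RPL37B (0.892) and RPS29A (0.874), which encode cytosolic ribosomal proteins, and ILV5 (0.886), an enzyme of branched-chain amino acid synthesis. GDH2 ran most like MBA1 (0.95), which acts in mitochondrial translation, ERG5 (0.916), an enzyme of ergosterol synthesis, and APD1 (0.913).

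Genes of the surrounding pathways were described from lists of ammonium transport and regulation, 2-oxoglutarate metabolism, aminotransferases, glutamine amidotransferases and proline, arginine and GABA routes. None of these lists had a call at 30, 60 or 120 s. Their counts at 300 s against steady state stand beside 12.1% of all genes higher and 18.3% lower, and their medians beside -0.12 for all genes. Of 13 genes of ammonium transport and nitrogen regulation, 2 rose, near the share of all genes, and 4 fell, with a median log2 change of 0.01. Besides MEP2, GZF3, a GATA-family repressor of nitrogen genes, rose by 0.58 (limma adjusted p = 0.0271), with 90.04 ± 10.77 at 300 s and 60.58 ± 11.13 at steady state. The 3 transporters of the family named for ammonia transport outward fell: ATO3 by 0.83 (limma adjusted p = 0.000664), ADY2 by 0.76 (limma adjusted p = 0.00122) and ATO2 by 0.66 (limma adjusted p = 0.00515). ATO3 averaged 1215 ± 132.5 at 300 s and 2147 ± 140.5 at steady state. NPR1, the kinase that keeps ammonium permeases active, fell by 0.44 (limma adjusted p = 0.0274). With the array series as a block GZF3 and NPR1 were not called (limma adjusted p = 0.0541 and 0.0941), and with median centring ATO2 and NPR1 were not called (limma adjusted p = 0.105 and 0.166).

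The other 7 genes of that list did not pass at 300 s. DAL80, a GATA-family repressor, lay at the floor on 8 of 16 arrays and nowhere above 17.15, and the GATA activator GLN3 lay at the floor on 2 and nowhere above 23.68, so differences for these dim probe sets are not given. GAT1, another GATA activator, differed from steady state by 0.25 on the log2 scale, and URE2, which holds GLN3 in the cytoplasm, by 0.10. GCN4, the activator of amino acid synthesis, differed by 0.05, LEU3, known to act on GDH1, by -0.32, and PAR32, a protein that inhibits the permeases, by 0.17. The limma adjusted p of all 7 ran from 0.0986 to 0.977. GAT1 was called between 300 s and 120 s (0.60, limma adjusted p = 0.0181). LEU3 was called lower at 330 s against steady state (-0.74, limma adjusted p = 0.00208).

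Among genes that supply or use 2-oxoglutarate, the carbon skeleton of glutamate, 2 of 18 measured genes rose at 300 s and 5 fell, with a median of -0.26; the number that rose is near the share of all genes. CIT2, the peroxisomal citrate synthase, averaged 1210 ± 138.1 at 300 s and 663.9 ± 44.62 at steady state and rose by 0.86 (limma adjusted p = 5.15e-05). YHM2, a mitochondrial citrate and oxoglutarate carrier, rose by 0.51 (limma adjusted p = 0.00289). IDP3 and IDP2, the peroxisomal and cytosolic isocitrate dehydrogenases, fell by 0.87 (limma adjusted p = 0.00042) and 0.60 (limma adjusted p = 0.0159), and KGD2, a subunit of the oxoglutarate dehydrogenase complex, fell by 0.59 (limma adjusted p = 0.0149). IDP2 and KGD2 were not called with median centring, where the list had 3 higher and 1 lower, beside 16.2% and 9.92% of all genes. With the array day as a block they were not called either (limma adjusted p = 0.0868 and 0.083), and the list had 3 higher and 3 lower. The share of all genes called under that block is not given here.

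Of the 12 aminotransferases that use glutamate, 4 rose and 4 fell, with a median of -0.04. BAT1, for mitochondrial branched-chain amino acids, rose by 0.80 (limma adjusted p = 0.000249), SER1, for serine, by 0.76 (limma adjusted p = 0.000102) and ARO8, for aromatic amino acids, by 0.57 (limma adjusted p = 0.00487). ALT2, related to alanine transaminase, fell by 1.34 (limma adjusted p = 5.08e-06), with 70.97 ± 1.146 at 300 s and 179.8 ± 8.51 at steady state. ARO9, the second aromatic aminotransferase, fell by 1.23 (limma adjusted p = 0.000684) and UGA1, which degrades GABA, by 0.59 (limma adjusted p = 0.0231). UGA1 was not called with median centring or with quantile normalization (limma adjusted p = 0.0713 and 0.0522). The list had 5 higher and 2 lower with median centring, beside 16.2% and 9.92% of all genes. With quantile normalization it had 5 and 3, beside 14.5% and 14.2%. BAT2, among those that fell, was not called with median centring (limma adjusted p = 0.0936), and ARG8, among those that rose, was not called with the array day as a block (limma adjusted p = 0.0648).

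The glutamine amidotransferases, enzymes that take nitrogen from the product of GLN1, had 8 of 12 higher and 0 lower at 300 s, with a median of 0.71. ASN1, for asparagine, averaged 749.1 ± 65.77 at 300 s and 253.8 ± 114.1 at steady state and rose by 1.67 (limma adjusted p = 0.000201). URA7, for CTP, rose by 1.37 (limma adjusted p = 2.59e-06) and GUA1, for GMP, by 1.29 (limma adjusted p = 1.65e-06). The 4 genes that did not pass were GFA1, TRP3, URA2 and URA8, at 0.01, 0.24, 0.08 and -0.30. The number higher was 9 with median centring, beside 16.2% of all genes, and 7 with quantile normalization, beside 14.5%. Under both, 0 were lower, beside 9.92% and 14.2% of all genes.

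In the proline, arginine and GABA routes, through which glutamate nitrogen is stored or released, 2 of 14 measured genes rose and 4 fell at 300 s, with a median of -0.03. UGA3, the activator of GABA-use genes, rose by 0.80 (limma adjusted p = 0.00188) and PUT1, proline oxidase, by 0.56 (limma adjusted p = 0.0193). UGA3 had 4 single-gene probe sets, and only the brightest is given here. CAR1, arginase, fell by 1.25 (limma adjusted p = 1.11e-05), with 72.92 ± 7.573 at 300 s and 172.3 ± 4.809 at steady state. GAD1, glutamate decarboxylase, fell by 0.86 (limma adjusted p = 0.00906) and PUT3, the activator of the PUT genes, by 0.53 (limma adjusted p = 0.0352). At 330 s against steady state PUT1 (0.30, limma adjusted p = 0.226) and PUT3 (0.16, limma adjusted p = 0.554) were not called, while UGA3, CAR1 and GAD1 were. At 300 s neither GAD1 nor PUT3 was called with median centring or with quantile normalization. With median centring this list had 4 higher and 1 lower, beside 16.2% and 9.92% of all genes.

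**Figure D4:**
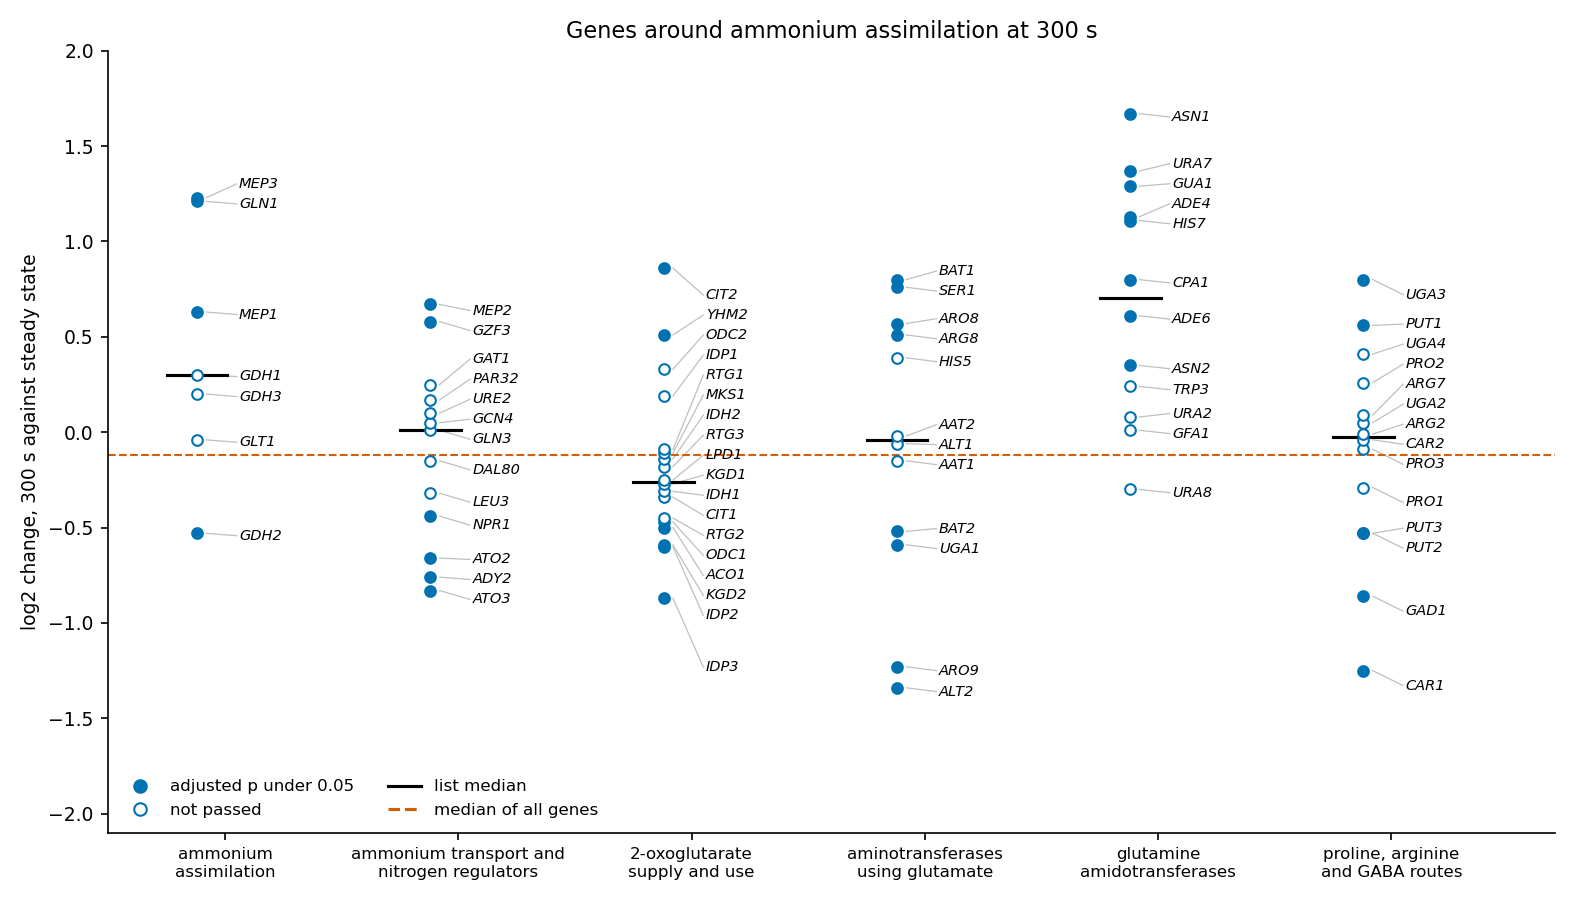
Log2 change at 300 s against steady state for every measured gene of the 7 members and of the 5 surrounding lists, 1 point per gene; filled points passed the adjusted p threshold. The glutamine amidotransferases have 8 filled points above 0 and none below, while the other lists have filled points on both sides.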

How the data were processed

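RNA from 16 samples was hybridised to Affymetrix YG_S98 arrays, 1 array per sample. The authors deposited 1 linear intensity per probe set and array, summarised with GCOS per the submitters' processing notes; the sources used here do not give its version or settings. Of 9335 probe sets, 60 were controls, 6504 had a single gene in GEO's platform annotation (all matched to RefSeq names), 328 several and 2443 none. Signals were multiplied by one factor per array to bring the trimmed mean (2% off each end) to 150, floored at 12 and taken to log2. For genes with several probe sets the brightest by mean log2 signal stood for the gene. A gene had to exceed the floor on at least 2 arrays, which removed 246 of 5656. limma 3.58.1 in R 4.3.3 (lmFit, eBayes with a trend, 9 residual and 6.3 prior degrees of freedom) was fitted on time point means of 15 arrays, with Benjamini-Hochberg adjustment over 5410 genes. The fit was tested on simulated data with independent noise on each array. The simulation held no array series, day or pulse effect, so it did not test the calls against these.

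The number of arrays limits the precision. The p-values measure the spread between these arrays; which arrays share a culture is not fully given. The main fit did not pair arrays by pulse number. Deviations from the mean of each time correlated over 0.1 in 20 of 31 same-numbered pairs of arrays (median 0.154). The same held in 8 of 62 differently numbered pairs (median -0.089). Both sets of pairs use the same deviations, so they are not independent. At times with only a pair of arrays the deviations are equal and opposite, so a positive correlation for one forces a negative one for the other. Most arrays of one pulse number also share a number series and an array day, which cannot be told apart from the pulse here. Alternatives covered scaling, floor, filter, probe set, variance model, blocks, thresholds and each array left out. The members and lists were chosen with earlier results of these data known. All 7 members and all genes of the transport and regulator list are named, and of each other list up to 3 that rose and 3 that fell, by size of change; a gene named outside this rule was named after its values were seen. Sequences of probes, promoters and proteins were not used here.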

Additional observations from a re-analysis of the deposited data

Results flagged for a closer look

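The single array at 210 s entered no comparison, and on it 4 of the 7 genes lay above their highest steady-state array, beside 19.2% of all genes (1041 of 5410). MEP1 read 707.7 at 210 s, against a steady-state maximum of 381.9, and this was the highest of all 16 arrays for that gene. GLN1 read 2178 at 210 s, against 1749. GDH1 read 1685 at 210 s, against 1465. MEP3 read 45.48 at 210 s, against 41.69. With 1 array there is no replicate check on these values.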

How the results depend on the processing

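The 300 s calls of GLN1, MEP1 and MEP3 held in 32 of 32 alternatives, with log2 changes of 1.07 to 1.41, 0.54 to 0.79 and 0.92 to 1.68, and the 330 s calls of GLN1 and MEP3 in 29 of 29 (1.12 to 1.60 and 0.99 to 2.23). The 300 s call of GDH2 was lost in 5 of 32, among them the fit without the 3 arrays numbered 23 to 25 (-0.48, limma adjusted p = 0.063). These tallies leave out the stricter thresholds, an adjusted p under 0.01 and a 1.5-fold minimum. GDH2 at 300 s (1.44-fold, limma adjusted p = 0.0159) passed neither, and GDH1 at 330 s (1.43-fold) missed the fold minimum. GDH1 at 300 s gained a call in 5 of 32, with median centring (0.47, limma adjusted p = 0.047), with day as a random block (0.0401) and with the replicate block among them. No called change turned its sign. The F test's count of 5 called genes became 3 without arrays 23 to 25 (GLN1, MEP1, MEP3; 18.9% of all genes called) and 2 without both 330 s arrays (GLN1, MEP1; 19.8%), both chosen after seeing the data. Leaving out 1 array at a time gave 3 to 5 called genes at 300 s, 3 to 4 at 330 s and 4 to 5 by the F test. The array day as a fixed block kept all 4 calls at 300 s. With the pulse number as a replicate block 5 genes were called at 300 s, GDH1 being the addition (0.30, limma adjusted p = 0.0491), and GDH3 stood at 0.20 (SE 0.14, limma adjusted p = 0.296). For this fit and those that left out arrays, the share of all genes called at 300 s or 330 s is not given here. Under the replicate block the F test called 5 of the 7 genes and 2148 of all genes, against 1921 without it. Of 15 arrays, 12 correlated best with an array of their own number. Most arrays of one number also share a number series and an array day, so pulse, series and day cannot be told apart in this count. The 330 s array of pulse 1 correlated at 0.123 to 0.336 with pulse 1 arrays. That of pulse 2 correlated at -0.202 to 0.051 with pulse 2 arrays and at -0.018 to 0.321 with pulse 3 arrays. The labels number the pulses, but which arrays share a culture is not fully given.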

Other observations

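At 330 s against steady state each of the surrounding lists had calls on both sides, beside 13.3% of all genes higher and 24.3% lower. Of 18 genes that supply or use 2-oxoglutarate, 3 rose and 8 fell, with a median of -0.53 on the log2 scale, against -0.19 for all genes. IDP3, the peroxisomal isocitrate dehydrogenase, averaged 69.43 ± 12.23 at 330 s and 168.8 ± 18.1 at steady state (SD, n = 2 and 3) and fell by 1.29 (limma adjusted p = 2.71e-05). Of 12 glutamine amidotransferases 8 rose and 2 fell; those that fell were GFA1 (-0.60, limma adjusted p = 0.0322) and URA8 (-0.94, limma adjusted p = 0.000479), named after their values were seen. URA7 and URA8, isoenzymes of CTP synthesis, stood at 1.63 and -0.94 at that time. Of 13 genes of ammonium transport and regulation 1 rose and 5 fell, of 12 aminotransferases 5 rose and 4 fell, and of 14 genes of proline, arginine and GABA routes 1 rose and 4 fell.

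Of the alpha-specific genes used for the mating type check, MF(ALPHA)1, a mating pheromone gene, was above the floor on all 16 arrays, with a median of 246.3, and was called higher at 300 s against steady state (0.81, limma adjusted p = 0.00315). SAG1, the alpha agglutinin, was called lower (-0.57, limma adjusted p = 0.0196). Signal from other transcripts on these alpha-specific probe sets was not tested. None of the 6 mating type a genes was called at 300 s against steady state by limma, beside 30.5% of all genes. At an unadjusted p under 0.05 limma gave 1 of 6, beside 2261 of 5410 genes.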
